A study of Mus musculus with 4 samples.

Results

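Tff3, Spink4, Agr2, Retnlb and Klk1 encode secretory products of intestinal goblet cells, and their transcripts were followed cell by cell in the distal colon (DC) and the small intestine. The set is these 5 named genes out of 28694 in the count tables, and each symbol was found under a single identifier. Unique molecular identifiers (UMIs, tags that count captured transcript molecules) were available from 4 droplet libraries, DC 1 and DC 2 from the distal colon and Si8 1 and Si8 2 from section 8 of the small intestine. All 4 came from RedMUC298trTg mice, 6 to 8 weeks old, which carry an mCherry reporter of goblet cells, and none came from mice without it. Living epithelial cells had been sorted on mCherry. The labels do not say how much of the mCherry-negative fraction entered a library, which promoter drives the reporter, or whether the libraries of a tissue came from different animals. The p-values between tissues therefore measure the spread between libraries, which may be technical. Those of comparisons made within libraries, given further below, rest on the spread left after each library's own level is removed.

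Goblet cells fill the mucus gel with the mucin Muc2 and with smaller secreted proteins. Tff3 is a trefoil peptide that is secreted with the mucus, binds the mucus protein Fcgbp through a disulfide bond and promotes repair of the epithelial surface. Agr2 is a protein disulfide isomerase family member of the endoplasmic reticulum that mice need to make Muc2 normally. Spink4 belongs to the Kazal-type inhibitors of serine proteases. Retnlb (RELM-beta) is a cysteine-rich protein that harms bacteria and is known to be induced by microbes and by type 2 cytokines. Klk1 is tissue kallikrein, a serine protease that releases kinins from kininogen.

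The coding sequences below show what sets these products apart: cysteine codons in the small secreted peptides, the redox-active site in Agr2 and the catalytic serine in Klk1. They were read from the GENCODE M21 transcripts of the GRCm38 mouse assembly, 5′ to 3′, and codons are counted from the initiating methionine. Tff3 (ENSMUSG00000024029, chromosome 17, 31125306 to 31129646, minus strand, 3 exons) encodes 81 residues, of which 7 are cysteines. Spink4 (ENSMUSG00000028415, chromosome 4, 40920052 to 40931395, plus strand, 4 exons) encodes 86 residues with 6 cysteines. Retnlb (ENSMUSG00000022650, chromosome 16, 48816856 to 48818892, plus strand, 4 exons) encodes 105 residues with 12 cysteines, or 11.4% of the chain, the highest share of the 5. For these 3 genes capitals mark cysteine codons, and for Retnlb the sequence starts at codon 7.
Tff3: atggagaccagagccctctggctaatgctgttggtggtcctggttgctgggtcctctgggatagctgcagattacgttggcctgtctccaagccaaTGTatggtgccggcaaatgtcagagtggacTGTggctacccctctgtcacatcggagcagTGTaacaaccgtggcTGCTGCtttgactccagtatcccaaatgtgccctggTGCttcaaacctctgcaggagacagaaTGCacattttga
Spink4: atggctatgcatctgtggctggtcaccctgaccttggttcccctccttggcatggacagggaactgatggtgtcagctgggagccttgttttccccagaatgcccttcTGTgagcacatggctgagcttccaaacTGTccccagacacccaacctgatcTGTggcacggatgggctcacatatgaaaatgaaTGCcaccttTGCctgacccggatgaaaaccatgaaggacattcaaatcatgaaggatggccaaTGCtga
Retnlb: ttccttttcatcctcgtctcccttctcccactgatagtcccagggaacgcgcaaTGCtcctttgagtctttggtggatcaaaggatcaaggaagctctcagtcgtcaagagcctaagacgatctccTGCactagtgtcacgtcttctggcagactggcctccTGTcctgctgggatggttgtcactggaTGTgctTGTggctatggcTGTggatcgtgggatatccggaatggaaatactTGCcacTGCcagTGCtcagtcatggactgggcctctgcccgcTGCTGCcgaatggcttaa
Agr2 (ENSMUSG00000020581, chromosome 12, 35992907 to 36004087, plus strand, 8 exons) encodes 175 residues with 1 cysteine. Codons 66 to 99 are shown, with the codons of cysteine 81 and serine 84 in capitals, the place where classical protein disulfide isomerases carry a pair of cysteines. Klk1 (ENSMUSG00000063903, chromosome 7, 44225360 to 44229618, plus strand, 5 exons) encodes 261 residues with 10 cysteines. Its codons 196 to 230 are shown, with the 5 codons of the glycine-aspartate-serine-glycine-glycine motif of trypsin-like proteases in capitals and serine 213 at its centre.
Agr2: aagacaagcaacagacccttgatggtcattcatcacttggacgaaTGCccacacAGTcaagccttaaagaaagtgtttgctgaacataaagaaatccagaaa
Klk1: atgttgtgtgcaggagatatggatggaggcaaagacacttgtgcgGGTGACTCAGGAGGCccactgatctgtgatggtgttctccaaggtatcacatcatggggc

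The assay counts molecules near the end of the transcript next to the poly(A) tail, so it matters whether that end is shared with other genes. In the last 500 bases of each transcript, no window of 50 bases of Tff3, Spink4, Agr2 or Retnlb occurred in a transcript of another gene. In Klk1, 138 of 451 windows (30.6%) also occurred in at least 1 of 8 Klk1b genes, its close relatives in a gene cluster, and the gene overlaps Gm10109 on the opposite strand. No source used here says how reads from shared windows were assigned, so the Klk1 count is uncertain to that degree. The 13 listed Klk1b genes together held between 0.199% (Si8 2) and 0.439% (DC 1) as many UMIs as Klk1 in goblet-like cells.

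Of 10827 cell barcodes, 10522 passed the limits on genes (500 or more) and mitochondrial UMIs (20% or less), and removing 279 putative doublets left 10243. Cells were grouped into 11 clusters without using the 5 genes or the other secretory lists described below, and clusters 2, 4 and 6 were called goblet-like from a fixed marker list. These held 809 (DC 1), 1703 (DC 2), 665 (Si8 1) and 906 (Si8 2) cells, 4083 in all, with median depths of 12260, 10301, 18521 and 19173.5 UMIs. Of 34 goblet markers, none of which is among the 5 genes, between 1 and 3 were at 0 in a library's goblet-like cells. The 17 Paneth markers present in the tables summed to 1361 and 1628 CPM (UMIs of the gene per 1e6 UMIs of the same cells) in the DC goblet-like cells, with 9 at 0, and to 5639 and 10904 CPM in those of Si8, with none at 0. The 38 absorptive markers summed to 291 and 356 CPM in DC against 2689 and 3386 CPM in Si8. The part these RNAs play in the tissue differences was not tested. Cell barcodes found in more than 1 library numbered 45.

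Tff3, Agr2 and Spink4 were lower in colonic than in small intestinal goblet-like cells, Klk1 was higher, and Retnlb was rare in both. Tff3 stood at 20119 CPM in DC 1 and 16827 in DC 2 against 97791 in Si8 1 and 91026 in Si8 2. Both DC libraries lay far below both Si8 libraries, and the tissues did not overlap. The fall in the colon was 2.89 on the log2 scale (SE 0.19, adjusted p = 7.98e-06). Tff3 alone took 2.01% and 1.68% of all UMIs of DC goblet-like cells and 9.78% and 9.10% of those of Si8.

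Agr2, the folding enzyme, was at 13099 and 16461 CPM in DC 1 and DC 2 and at 31076 and 31676 CPM in Si8 1 and Si8 2. It was lower in both colonic libraries, by a log2 difference of -1.62 (SE 0.18, adjusted p = 0.000153). Muc2, the mucin whose production it serves, was at 5017 and 6308 CPM in DC against 12121 and 12346 CPM in Si8, with a log2 difference of -1.65 (SE 0.17, adjusted p = 1.00e-04). Counted per UMI of Muc2, Agr2 gave 2.61 UMIs in each DC library and 2.56 and 2.57 in the Si8 libraries. These ratios pool clusters that differed. In DC 1, DC 2, Si8 1 and Si8 2 they were 3.55, 3.28, 3.59 and 4.27 in cluster 2. In cluster 4 they were 1.88, 2.00, 2.04 and 2.11. Spink4 per UMI of Muc2 was 3.25 and 2.52 in DC goblet-like cells and 2.59 and 2.50 in those of Si8. Tff3 per UMI of Muc2 was 4.01 and 2.67 in DC but 8.07 and 7.37 in Si8.

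Spink4, the Kazal-type inhibitor, was at 16303 and 15908 CPM in DC against 31389 and 30803 CPM in Si8. The libraries of a tissue lay close together and the tissues did not overlap, and the log2 difference was -1.49 (SE 0.15, adjusted p = 0.000103). Klk1, the protease, ran the other way, with 3701 and 3913 CPM in DC against 1639 and 1615 CPM in Si8. Its log2 difference was 0.69 (SE 0.13, adjusted p = 0.00253), and the tissues did not overlap. The call for Klk1 was lost when cells were clustered more coarsely, at a Leiden resolution of 0.5 (0.53, adjusted p = 0.082), where another set of clusters made up the goblet-like class of each tissue.

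Retnlb stood at 14.01 (DC 1), 10.3 (DC 2), 17.1 (Si8 1) and 6.33 CPM (Si8 2). Both DC libraries lay between the Si8 libraries, and the log2 difference of -0.45 (SE 0.38) did not pass (adjusted p = 0.354). Its sign turned with the cells used, as it was 1.27 in cluster 4 alone (adjusted p = 0.00572) and 1.07 at the coarser clustering (adjusted p = 0.00986). It also turned with the library left out, to 0.34 without Si8 1 (adjusted p = 0.229) and to -1.02 without Si8 2 (adjusted p = 1.43e-06). With no filter on low counts it was -0.45 and passed (adjusted p = 0.0348). No direction is therefore given for Retnlb.

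**Figure D1:**
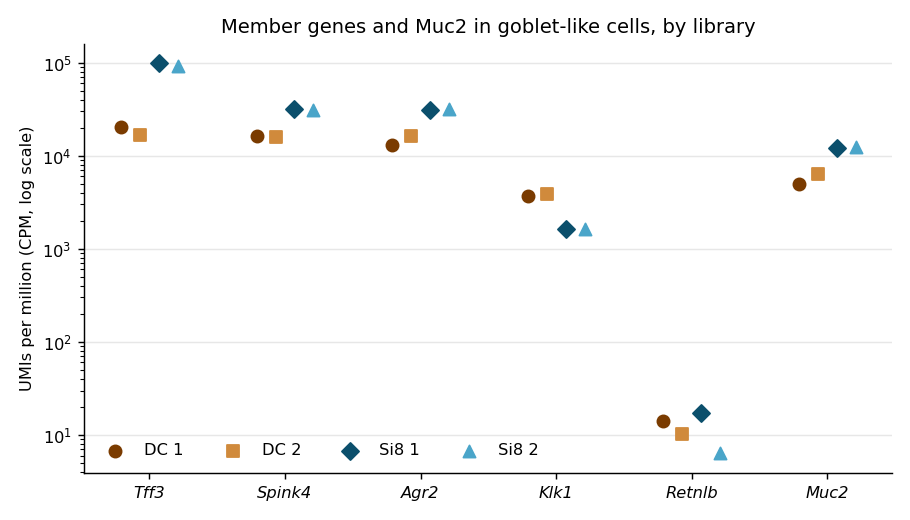
Scaled UMI counts (CPM, log axis) of the 5 genes and Muc2 in goblet-like cells, 1 point per library, circles and squares for DC and diamonds and triangles for Si8. Tff3, Spink4, Agr2 and Muc2 are lower in both DC libraries, Klk1 is higher, and the Retnlb points of the tissues overlap between 6.33 and 17.1 CPM.

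In all, 4 of the 5 genes passed the edgeR test at an adjusted p below 0.05, 3 lower and 1 higher in the colon. In the same test 47.4% of the 11504 genes tested passed, so passing was common among all genes. Of all genes tested, 23.4% were called higher and 24.1% lower. The median log2 difference was -1.49 over the 5 genes and 0.05 over all genes tested. With library totals in place of TMM scaling, the median over all genes moved to 0.59 and the split of called genes went from 2688 higher and 2768 lower to 6548 higher and 1279 lower. Under that scaling the values were -2.35 for Tff3, -1.09 for Agr2, -0.95 for Spink4 and 1.23 for Klk1, all 4 still called in the same direction, while that of Retnlb turned to 0.08 (adjusted p = 0.872).

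Within each goblet-like cluster the 3 lower genes were also lower in the colon. The log2 difference of Tff3 was -3.08 in cluster 2, -2.12 in cluster 4 and -3.31 in cluster 6. That of Agr2 was -1.70, -1.45 and -1.52, and that of Spink4 -1.30, -1.69 and -1.64. Klk1 was higher in the colon by 0.87, 0.73 and 0.65. These values passed the test in each cluster (largest adjusted p = 0.0147, Klk1 in cluster 6), where 36.7%, 39.2% and 30.6% of all genes tested in clusters 2, 4 and 6 passed. Retnlb differed in sign between them, at -1.48 in cluster 2 (adjusted p = 0.056), 1.27 in cluster 4 (adjusted p = 0.00572) and -0.19 in cluster 6 (adjusted p = 0.818).

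Nearly every goblet-like cell held UMIs of the 4 abundant genes. With each cell thinned to 2000 UMIs, which left out no goblet-like cell, Spink4 and Agr2 were found in between 99.5% and 100% of cells of every library. Tff3 was found in 97.2% and 95.2% of DC cells and 100% of Si8 cells, and Klk1 in 99.8% and 99.9% of DC cells and 91.0% and 92.2% of Si8 cells. For these 2 genes the libraries of the tissues did not overlap, but with 2 libraries against 2 an exact two-sided permutation test cannot go below the p = 0.333 that both gave. The share of all genes whose detection did not overlap was not counted, so no weight is put on this. Without thinning, at least 99.2% of cells in each library had a UMI of each of the 4 genes. In thinned cells all 4 genes were present together in 96.9% and 95.1% of DC cells and in 91.0% and 92.2% of Si8 cells, and no cell lacked all of them.

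A UMI in a droplet is not by itself expression, since free RNA also gives UMIs. Absorptive-like cells (cluster 1), at median depths of 14879.5, 13551, 18904 and 24549 UMIs, held Tff3 in 84.8%, 84.6%, 99.1% and 99.0% of thinned cells. They held Klk1 in 92.2% and 90.3% of cells in DC and 61.9% and 39.1% in Si8. Levels separated the classes more than detection did: Tff3 was at 7767, 5184, 44847 and 26975 CPM in absorptive-like cells, below the goblet-like level in each library. The UMIs per UMI of Muc2 in these cells were 1.76, 1.92, 1.42 and 1.85 for Agr2, each below the goblet-like ratio of the same library. How much of the signal outside goblet-like cells was free RNA was not tested. The absorptive-like name also depends on the clustering. At a Leiden resolution of 2.0, 304 DC cells in place of 1165 were absorptive-like, and a cluster of 859 DC cells led by Hao2 and Gsdmc2 had no name. In Si8, clusters of 190 and 228 cells were absorptive-like there, in place of 420.

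Of the 4 abundant genes, Tff3 varied most between goblet-like cells in the colon and least in the small intestine. Among thinned DC cells Tff3 ran from 2 UMIs (5th percentile) through a median of 32 to 121.6 (95th percentile) in DC 1, and from 1 through 23 to 115 in DC 2. In Si8 1 it ran from 107 through 204 to 343.8, and in Si8 2 from 90.25 through 191.5 to 282.5. The coefficient of variation (SD over mean) of Tff3 was 0.88 and 1.08 in DC and 0.35 and 0.32 in Si8, part of which is counting noise at the lower mean. Spink4 had a coefficient of variation of 0.41 and 0.43 in DC and 0.53 and 0.56 in Si8, although its mean was higher in Si8. Agr2 gave 0.41 and 0.40 in DC and 0.53 and 0.37 in Si8, where the libraries overlapped between tissues.

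**Figure D2:**
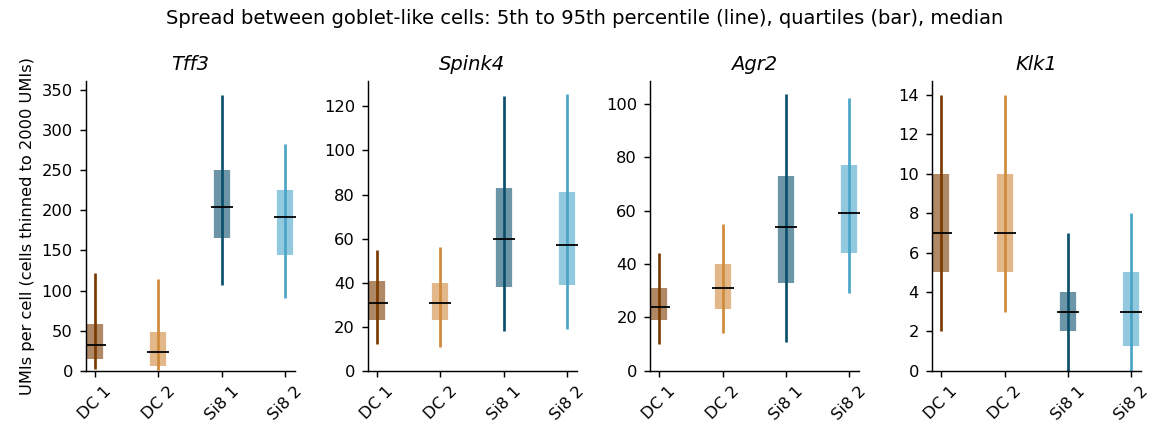
UMIs per goblet-like cell after thinning to 2000 UMIs, for Tff3, Spink4, Agr2 and Klk1 in each library. Lines run from the 5th to the 95th percentile, bars between the quartiles, and the dash is the median; the median of Tff3 is 32 and 23 in DC and 204 and 191.5 in Si8, and that of Klk1 is 7 in DC and 3 in Si8.

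Goblet-like clusters differed in the mixture of products, which is given as a description because clusters were drawn from the same cells. Cluster 4 led in Clca1, Zg16 and Fcgbp in the colon, and it held 40381 and 35090 CPM of Tff3 in DC against 11789 and 9734 CPM in cluster 2. The ratio of cluster 4 to cluster 2 was thus 3.42 and 3.60 in DC, and it was 1.46 and 1.73 in Si8. Spink4 ran the other way, at 0.74, 0.71, 0.79 and 0.88 of its cluster 2 level in DC 1, DC 2, Si8 1 and Si8 2. Cluster 6, which led in Mptx1 and Sval1 in the colon, had the highest Spink4 and Klk1 of the 3 clusters in every library, with Spink4 at 19206, 19086, 40548 and 44166 CPM.

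Cluster 8 held the most Tff3 and Muc2 of clusters 1 to 10 and, in DC, the least Spink4. It had no cell class name in either tissue because goblet and absorptive markers were tied among its leading genes in DC and a marker of another class but no goblet marker stood among its first 10 in Si8. Its median depth was low, at 3936, 3948, 5871 and 14499 UMIs, and it made up 6.23%, 2.14%, 18.8% and 3.87% of kept cells. Tff3 stood there at 77891, 73429, 188479 and 152940 CPM and Muc2 at 17976, 13784, 23858 and 22204 CPM. Agr2 was at 2388, 4698, 5011 and 11475 CPM, between 0.15 and 0.30 of the cluster 2 level of the same library. Spink4 was at 2297, 3352, 15825 and 15732 CPM, or 0.14, 0.21, 0.50 and 0.50 of it. Tff3 UMIs per UMI of Agr2 came to 32.6, 15.6, 37.6 and 13.3 in cluster 8, compared with 1.54, 1.02, 3.15 and 2.87 in goblet-like cells. Whether the low depth has a part in this mixture was not tested.

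**Figure D3:**
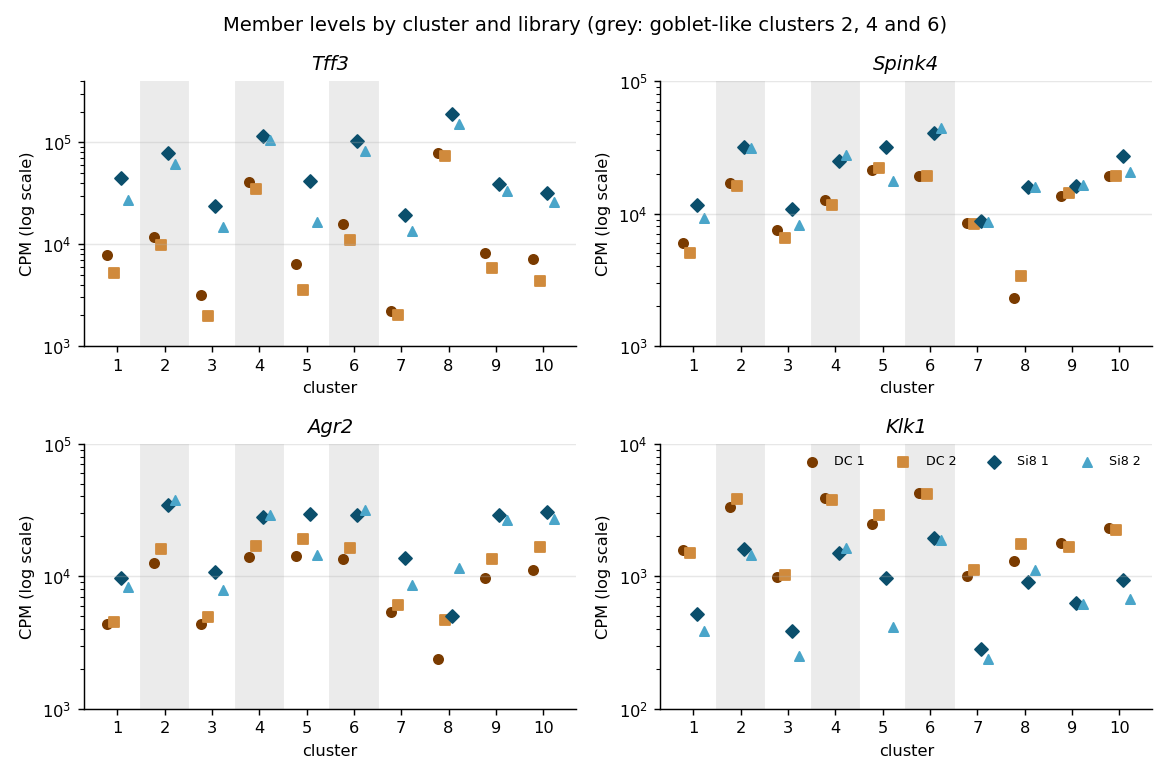
Scaled UMI counts (CPM, log axis) of Tff3, Spink4, Agr2 and Klk1 in clusters 1 to 10, 1 point per library, with the goblet-like clusters 2, 4 and 6 on grey; cluster 11 (enteroendocrine-like, 1 to 16 cells per library) is left out. In cluster 8 Tff3 reaches between 73429 and 188479 CPM while Agr2 lies between 2388 and 11475 CPM.

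Outside goblet-like cells, cycling-like cells (clusters 3, 9 and 10) held 10803, 9193, 13083 and 10081 CPM of Spink4 and 5214, 2858, 26977 and 17733 CPM of Tff3. Spink4 there differed less between tissues than Tff3 did. Paneth-like cells (cluster 5 in Si8) held 31967 and 17587 CPM of Spink4 and 29495 and 14428 CPM of Agr2. In Si8 1 these levels were near those of its goblet-like cells, and in Si8 2 they were below them. Muc2 was at 5811 and 2850 CPM in the same Paneth-like cells. These levels are of the 409 cells of cluster 5, and the Paneth-like name depends on the clustering. At a Leiden resolution of 2.0 it fell to 67 Si8 cells, in which the levels were not measured.

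Retnlb sat in few cells, and in the small intestine cluster 5, the Paneth-like cluster of Si8, held most of its UMIs. Of its UMIs in kept cells, 228 (DC 1), 526 (DC 2), 861 (Si8 1) and 821 (Si8 2), goblet-like cells held 60.1%, 34.6%, 22.2% and 13.4%. Paneth-like cells held 59.9% and 66.6% in Si8, at 108.9 and 79.3 CPM, and 46 of the 121 and 39 of the 146 cells with a Retnlb UMI. These shares depend on the clustering. At a Leiden resolution of 2.0, 67 Si8 cells in place of 409 were Paneth-like, and they held 17.9% and 19.5% of the Retnlb UMIs. At that resolution a cluster of 213 Si8 cells, led by Reg4, Rnase1, Mmp7 and Ccl9, held 27.1% and 38.2%; it had no name, with 4 goblet and 3 Paneth markers among its 50 top genes. Cells with at least 5 UMIs held 39.5% and 31.4% of the Retnlb UMIs in DC and 84.2% and 79.4% in Si8, and the fullest cell had 28, 28, 97 and 154 UMIs. Such cells numbered 10 and 16 in DC and 37 and 29 in Si8.

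The share of cells with a Retnlb UMI, without thinning, was 6.43%, 6.22%, 7.07% and 5.74% in goblet-like cells. It was 3.43%, 3.33%, 0.885% and 4.56% in absorptive-like cells, at the depths given above. That class was taken as background, but whether its cells lack Retnlb was not tested, and its name depends on the clustering. The exact Clopper-Pearson 95% intervals of the 2 classes did not touch in DC 2 (5.12% to 7.48% against 2.29% to 4.67%) or in Si8 1 (5.24% to 9.29% against 0.022% to 4.83%) but overlapped in DC 1 and Si8 2. In Paneth-like cells the share was 21.3% (16.0% to 27.4%) and 20.2% (14.8% to 26.6%). Thinned to 2000 UMIs, the shares were 2.60%, 1.64%, 0.902% and 1.66% in goblet-like cells and 10.2% and 6.74% in Paneth-like cells. No thinned absorptive-like cell of Si8 held it, 0 of 113 and 0 of 307, which allows shares of up to 2.65% and 0.977%. Intervals and limits cover counting error only.

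Co-expression with Muc2 was followed by ranking the goblet-like cells of each library by the Muc2 share of their UMIs. Across quartile groups, from lowest to highest Muc2, Tff3 rose in all 4 libraries. It went from 10974 to 35022 CPM in DC 1, from 10373 to 26148 in DC 2, from 74262 to 120719 in Si8 1 and from 62120 to 112894 in Si8 2. Agr2 was level in the colon, at 12709 and 13191 CPM in the lowest and highest group of DC 1 and 15872 and 16528 in DC 2. In the small intestine it fell through every group, from 39602 to 21526 CPM in Si8 1 and from 40224 to 23530 in Si8 2. Spink4 was also without a trend in DC, at 16252 and 14496 CPM in DC 1 and 15600 and 15224 in DC 2, but went from 23701 to 38163 in Si8 1 and from 22799 to 39543 in Si8 2. Klk1 went from 2963 to 4274, from 3410 to 4039, from 1302 to 1872 and from 1224 to 1871 CPM. Median depth was lower in the highest than in the lowest Muc2 group of every library, for example 14127 against 21301 UMIs in Si8 1. CPM also carry any shift that most genes share. With library totals, cells above the Muc2 median had a median log2 difference over all genes of -0.23 in Si8 and -0.05 in DC. Agr2 stood at -0.51 in Si8 with that scaling and at -0.28 with TMM scaling.

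**Figure D4:**
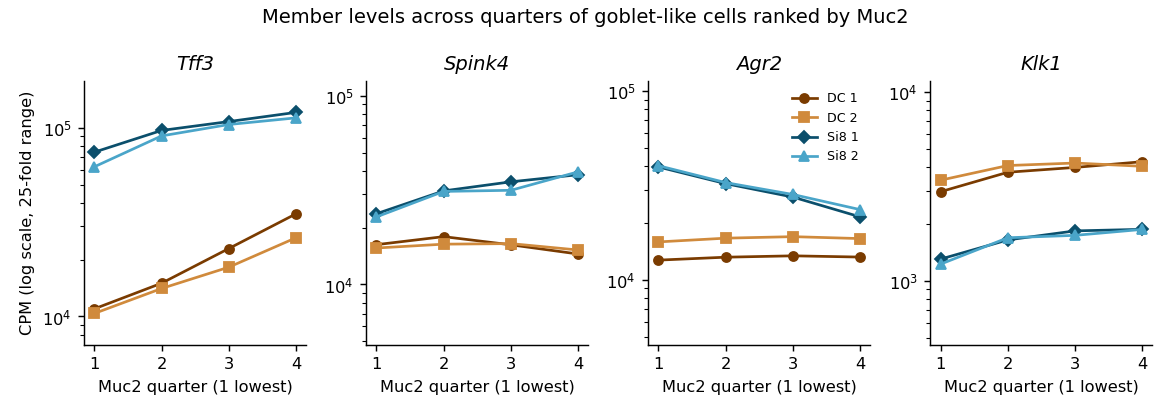
Scaled UMI counts (CPM, log axis, the same 25-fold range in each panel) of Tff3, Spink4, Agr2 and Klk1 in quartile groups of goblet-like cells ranked by Muc2 within each library. Agr2 lies flat in DC and falls in Si8, Spink4 lies flat in DC and rises in Si8, and Tff3 rises in all 4 libraries.

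The cells above the Muc2 median were then compared with those below it, summed by library and with the library as a block. In DC, Tff3 rose with Muc2 by a log2 difference of 1.06 (SE 0.05, adjusted p = 2.71e-42) and Klk1 by 0.28 (SE 0.05, adjusted p = 3.18e-07). Spink4 (-0.02, SE 0.04, adjusted p = 0.794) and Agr2 (0.10, SE 0.04, adjusted p = 0.123) did not pass there. In Si8, Tff3 rose by 0.69 (SE 0.05, adjusted p = 1.60e-26), Spink4 by 0.63 (SE 0.04, adjusted p = 1.68e-25) and Klk1 by 0.55 (SE 0.05, adjusted p = 4.49e-20), while Agr2 differed by -0.28 (SE 0.04, adjusted p = 3.45e-08). Called genes among the 5 thus numbered 3 in DC, where 15.7% of the 11045 genes tested were called, and 5 in Si8, where 25.4% were. Averaged over both tissues 4 of the 5 were called, beside 30.1% of genes tested, and Spink4 was lost from that average when the library block was left out (adjusted p = 0.0509). The average for Agr2 (-0.09, adjusted p = 0.0116) was lost in 5 alternatives, among them DESeq2 (adjusted p = 0.168), and turned to 0.89 when all kept cells were ranked. Muc2 ranks were made from the same cells, and with 2 libraries per tissue the very small p-values rest on a spread borrowed across genes.

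Retnlb passed in both tissues in opposite directions, 0.88 in DC (SE 0.21, adjusted p = 0.000638) and -0.76 in Si8 (SE 0.22, adjusted p = 0.00605), but a single library carried each. In DC 1 it had 32 UMIs below and 105 above the Muc2 median, in DC 2 94 and 88. In Si8 1 it had 156 below and 35 above, in Si8 2 58 and 52. Of the 156 UMIs in Si8 1, 90 came from a single cell, and of the 105 in DC 1, 28 did.

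The tissue difference of the Muc2 contrast (DC minus Si8) passed for all 5 genes, where 4.82% of genes tested passed. It was -0.65 for Spink4 (SE 0.06, adjusted p = 3.08e-16), 0.38 for Agr2 (SE 0.06, adjusted p = 1.15e-06), 0.37 for Tff3 (SE 0.07, adjusted p = 8.02e-06), -0.27 for Klk1 (SE 0.06, adjusted p = 0.00222) and 1.64 for Retnlb (SE 0.30, adjusted p = 3.86e-05). Muc2 itself rose more across the split in DC (upper over lower 2.55 and 2.29) than in Si8 (1.80 and 1.75). The part of this wider split in the 5 values was not tested. The values for Spink4 held in 10 of 12 alternatives, those for Agr2 in 9. Agr2 missed the threshold without Si8 1 (adjusted p = 0.0604). Tff3 was lost with DESeq2 (adjusted p = 0.879), in thinned cells (adjusted p = 0.139) and without Si8 1 (adjusted p = 0.103). Klk1 was lost with DESeq2 (adjusted p = 0.133), with library totals (-0.10, adjusted p = 0.418), in thinned cells (adjusted p = 0.143), without DC 2 (adjusted p = 0.173) and without Si8 2 (adjusted p = 0.172). Retnlb moved to 0.86 without DC 1 (adjusted p = 0.0815), to 0.56 without Si8 1 (adjusted p = 0.505), to 2.79 without DC 2, to 2.50 without Si8 2, to 0.23 with quartile groups and to 0.27 in thinned cells. With no library block, or with all kept cells ranked, none of the 5 passed.

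Rank correlations across thinned goblet-like cells described the relations cell by cell. They rest on 809, 1703, 665 and 906 cells that share a library and a fixed depth. Spearman's rho of Tff3 with Muc2 was 0.41 in DC 1, 0.17 in DC 2, 0.50 in Si8 1 and 0.55 in Si8 2. For Tff3 rho was thus lower in both DC libraries, whereas its Muc2 contrast was larger in DC (1.06) than in Si8 (0.69). Agr2 gave 0.05 and 0.02 in DC and -0.41 and -0.49 in Si8. Spink4 gave -0.12 and -0.03 in DC and 0.27 and 0.32 in Si8, and for both genes the tissues did not overlap. The share of all genes whose rho with Muc2 did not overlap was not counted, so no weight is put on this. Over all goblet-like cells Klk1 was weakly positive in all 4 libraries (0.23, 0.07, 0.15 and 0.22). Retnlb, present in few cells, lay between -0.03 and 0.07.

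Among the members, Tff3 and Agr2 ran against each other in the small intestine (rho -0.65 and -0.58) and not in the colon (0.13 and -0.09). Tff3 and Spink4 ran against each other in the colon (-0.37 and -0.38) and were weakly positive in the small intestine (0.11 and 0.12). Spink4 and Agr2 gave 0.02 and 0.10 in DC and -0.21 and -0.33 in Si8. These differences between tissues are a description with 2 libraries each. At a fixed depth, UMIs of 1 gene leave fewer for the others. Tff3 took 9.78% and 9.10% of UMIs in Si8 goblet-like cells and 2.01% and 1.68% in those of DC. The part of this in the values of rho was not tested. Within cluster 4, rho of Agr2 with Muc2 was -0.18, -0.12, -0.32 and -0.41, negative in the colon as well, and within clusters 2 and 6 that of Tff3 with Muc2 was 0.17, -0.07, 0.45 and 0.58 and then 0.02, -0.13, 0.39 and 0.46. In the colon the relation of Tff3 with Muc2 was thus weaker within clusters 2 and 6 than over all goblet-like cells. For Spink4 with Muc2 the values of DC 1 and DC 2, near 0 over all goblet-like cells, differed in sign between clusters, at 0.08 and 0.20 in cluster 2, -0.24 and -0.14 in cluster 4 and 0.06 and 0.09 in cluster 6. In Si8 they were positive in each of these clusters, between 0.28 and 0.59. Klk1 with Muc2 was negative in cluster 4 of the colon (-0.07 and -0.11) and positive in cluster 4 of Si8 and in clusters 2 and 6 of both tissues.

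**Figure D5:**
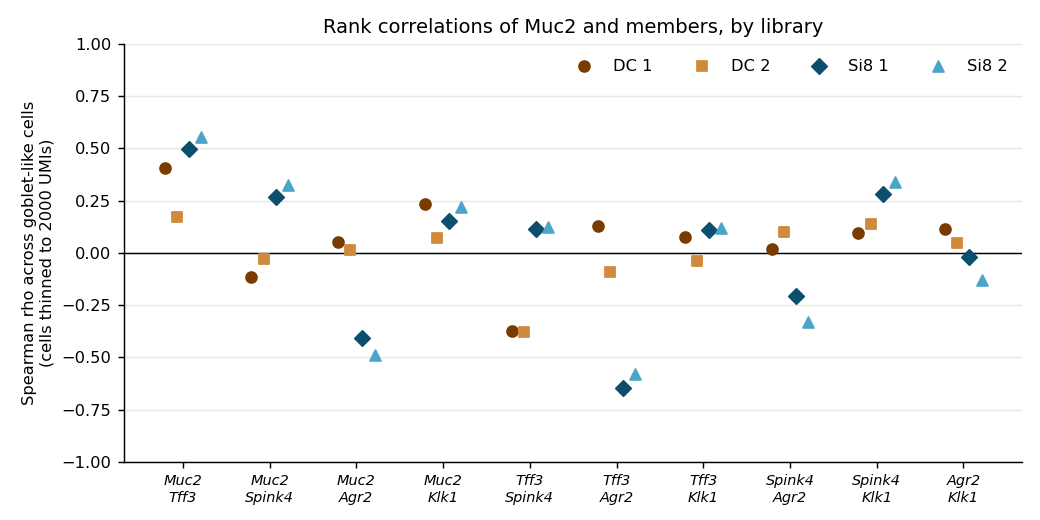
Spearman's rho across goblet-like cells thinned to 2000 UMIs for pairs of Muc2, Tff3, Spink4, Agr2 and Klk1, 1 point per library. The Tff3 and Agr2 pair lies at -0.65 and -0.58 in Si8 and near 0 in DC, and the Tff3 and Spink4 pair at -0.37 and -0.38 in DC and above 0 in Si8.

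Of 1470 genes found in enough cells, those most like Tff3 by mean rho over the 4 libraries were Fcgbp (0.72), Clca1 (0.59), Zg16 (0.55), S100a6 (0.47) and Muc2 (0.41), and those least like it were the ribosomal protein genes Rplp0 (-0.48), Rps2 and Rps18. Spink4 was most like Guca2a (0.38), the gene of the peptide hormone guanylin, and the chemokine gene Ccl6 (0.29), and least like the keratin gene Krt8 (-0.33). Agr2 was most like Sec61b (0.36), which encodes a subunit of the translocation channel of the endoplasmic reticulum, then Ppia, Txn1 and Manf (0.29 each), and least like Malat1 (-0.33) and Tff3 (-0.30). Klk1 was most like Spink4 (0.21), Sval1 (0.20) and Muc2 (0.17). No gene had a mean rho with Retnlb above 0.06.

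Beside these genes, genes of the folding machinery that serves secreted disulfide-bonded proteins were examined. Of 29 listed disulfide and folding enzyme genes, 28 were tested, 19 were lower and 2 higher in DC goblet-like cells, with a median log2 difference of -0.84 beside 0.05 over all genes tested, of which 24.1% were called lower and 23.4% higher. With library totals these counts became 14 lower and 7 higher of 28, beside 1279 lower and 6548 higher among all genes. Creld2, which is induced by stress of the endoplasmic reticulum, was at 54.5 and 61.3 CPM in DC against 175.0 and 143.3 in Si8, while Ern1, a stress sensor, was at 21.1 and 18.0 against 8.05 and 5.75 CPM. The same list followed Muc2 as Agr2 did in Si8, with 16 lower and 1 higher above the Muc2 median and a median of -0.33 beside 0.00 over all genes tested. Of all 11045 genes tested there, 1395 were lower and 1405 higher. With library totals 21 of the list were lower and 0 higher in Si8, beside 3168 lower and 481 higher among all genes. In DC 8 were higher and 2 lower (median 0.14), beside 924 higher and 809 lower among all genes. With library totals 5 were higher and 4 lower in DC, beside 622 higher and 1062 lower among all genes. All 4 core mucus genes (Muc2, Fcgbp, Clca1 and Zg16) were lower in DC, with a median of -2.46.

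Goblet regulators were mixed, with 6 higher and 8 lower of 18 tested, and 10 higher and 4 lower with library totals. Cdx2, an intestinal homeobox factor, was at 7.57 and 12.1 CPM in DC against 81.4 and 91.8 in Si8. Foxa2, a forkhead factor, was at 118.3 and 91.1 CPM in DC and 18.4 and 20.7 in Si8. Among 23 listed receptor and partner genes of these peptides, 11 were tested. In DC 5 were lower and 2 higher, and 1 lower and 5 higher with library totals, so no direction is given for the list. The protease inhibitor gene Serpinb1a was at 224.5 and 232.7 CPM in DC against 400.4 and 443.9 in Si8.

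Relatives of the 5 genes were mostly silent here. Of 41 listed, 6 were tested, 4 higher and 1 lower in DC, beside 23.4% higher and 24.1% lower among all genes tested. Spink5 was called higher on 19 and 14 UMIs in DC against 0 in each Si8 library. The list also holds the Klk1b genes, some of which share windows with Klk1, as given above. Spink1, another Kazal-type inhibitor gene, was at 2449 and 2114 CPM in DC against 119.4 and 56.1 CPM in Si8 (log2 difference 4.18, SE 0.32, adjusted p = 1.88e-05), opposite to Spink4. Within the colon it rose with Muc2 by 2.97 (SE 0.09). Agr3, the closest relative of Agr2, was at 7.77 and 5.37 CPM in DC against 25.95 and 37.0 CPM in Si8 (log2 difference -2.85, SE 0.23, adjusted p = 2.64e-05), the same direction as Agr2 at a far lower level. No UMI of Tff1, Retn, Retnla or Retnlg was counted in goblet-like cells, and Tff2 had 1, 5, 3 and 15.

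Over all kept cells, Tff3 stood at 12406 and 7845 CPM in DC against 75826 and 46054 in Si8 (log2 difference -3.02, SE 0.46, adjusted p = 0.00781). Agr2 differed by -1.47 (SE 0.31, adjusted p = 0.0207) and Spink4 by -1.21 (SE 0.32, adjusted p = 0.041), which was lost with library totals (-0.79, adjusted p = 0.107). Retnlb differed by -1.96 (SE 0.39, adjusted p = 0.0183), at 8.69 and 8.34 CPM in DC against 33.8 and 15.7 CPM in Si8, a sum that holds the cells of cluster 5. Klk1 missed the threshold (0.85, SE 0.25, adjusted p = 0.0585) but passed in 6 of 11 alternatives, among them library totals (1.27, adjusted p = 0.0102) and DESeq2 (adjusted p = 0.00629). In this comparison 4 of the 5 genes were called, beside 24.9% of the 13084 genes tested, and none was called without DC 1 or without DC 2, where a DC library alone is assumed to vary like the Si8 libraries. Class shares differ between these libraries, so the values over all cells also carry the make-up of each sort.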

How the data were processed

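The deposited values are UMI counts of genes in barcodes, not normalized by the authors as far as the values show. Per the submitters' processing notes the authors used Cell Ranger 2.1.1 and the mm10 build; no source used here names the annotation version, and 28341 of 28694 identifiers (98.8%) were found in GENCODE M21. Total UMIs per library ran from 26075303 to 66880457. Barcodes under 500 genes or over 20% mitochondrial UMIs were dropped. Scrublet's own threshold marked 20 cells (0.19%), so the top scores were removed instead, at 0.8% per 1000 cells. Cells were clustered in scanpy 1.11.5 (2000 variable genes, without the 5 genes, their relatives, core mucus, folding, regulator and partner genes, 30 principal components, 5 neighbours per library, Leiden resolution 1.0). Clusters were named in each tissue when a class had 3 or more markers among their 50 top genes, ahead of every other class, and was not outnumbered among the first 10. Naming by tissue, rather than over all libraries together, was chosen after the clusters and a first result had been seen; naming over all libraries would have put cluster 8 among the goblet-like clusters.

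Counts were summed per library and tested by quasi-likelihood in edgeR 4.0.16 (TMM factors, minimum count 10, Benjamini-Hochberg threshold 0.05, all genes together), which was tested on simulated data. For goblet-like cells the factors of DC 1, DC 2, Si8 1 and Si8 2 were 1.22, 1.19, 0.845 and 0.816, so log2 differences are shifted against ratios of CPM. CPM are scaled to all UMIs of the summed cells. Muc2 groups were split at the median Muc2 share within a library. Named genes are the 5 genes, the core mucus genes, up to 4 called genes of each list by size of change, and the genes of highest and lowest mean rho with each member. The members and lists were chosen with earlier results of these data known, and the printed sequences were chosen after the files had been read. Alternatives covered scaling, DESeq2 1.42.0, filters, thinning, doublets, clustering, blocks and leaving out each library.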

Additional observations from a re-analysis of the deposited data

Results flagged for a closer look

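The difference between tissues in how the 5 genes moved with Muc2 was tested directly, as the Muc2 contrast in DC minus that in Si8, and passed for each of them with the edgeR quasi-likelihood test. It was 0.374 for Tff3, -0.652 for Spink4, 0.381 for Agr2, 1.642 for Retnlb and -0.273 for Klk1 on the log2 scale. The ratio of the upper to the lower Muc2 group was 0.90 and 0.99 in DC and 1.33 and 1.31 in Si8 for Spink4. For Agr2 it was 1.03 in both DC libraries and 0.69 and 0.71 in Si8, so for these 2 genes every library lay on its own tissue's side. How many of all genes split in this way was not counted. For Retnlb it was 3.90, 1.05, 0.284 and 1.04, so that DC 1 and Si8 1 stood apart from the other 2 libraries. The values for Tff3, Klk1 and Retnlb changed with several settings, as given in the report. For Muc2 itself the ratio was 2.55 and 2.29 in DC and 1.80 and 1.75 in Si8. These ratios are of CPM, and with library totals the median log2 difference over all genes was -0.05 in DC and -0.23 in Si8.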

How the results depend on the processing

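In goblet-like cells, Tff3, Agr2 and Spink4 kept their direction and their call in all 18 alternatives, with ranges of -3.64 to -1.68, -1.81 to -1.09 and -2.99 to -0.95. Klk1 kept its direction in all 18 and missed the threshold in 2. Retnlb was reversed and called at a Leiden resolution of 0.5 (1.069) and in cluster 4 alone (1.274), turned sign without a call with library totals (0.076) and without Si8 replicate 1 (0.342), and was called in its first direction with no filter on low counts (-0.449) and without Si8 replicate 2 (-1.019). An alternative chosen after seeing the data added cluster 8 to the goblet-like cells. There 4 members were called, as before, beside 5060 of the 11621 genes tested. In cluster 8 alone 4 members were tested, without Retnlb, and 3 were called, beside 986 of the 5684 genes tested. Klk1 was not called there (0.096).

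Over all cells, 0 to 5 members were called when a library was left out; the 0 came without DC replicate 1 and without DC replicate 2, where 2 and 3 members had an unadjusted p below 0.05, and DESeq2 on all libraries called 5. Spink4 was lost with library totals (-0.787), and Klk1 passed in 6 of 11 alternatives. The Paneth-like share of Retnlb UMIs in Si8 fell to 17.9% and 19.5% at a Leiden resolution of 2.0, also tried after seeing the data. The Muc2 contrast fell from 4 called members to 2 with no library block, and Agr2 was reversed with all kept cells (0.885). The tissue difference of that contrast fell from 5 members to 2 with DESeq2, to 2 in thinned cells, to 0 with all kept cells and to 0 with no library block (edgeR; 0 and 2 members with an unadjusted p below 0.05), and to between 2 and 4 when a library was left out. With all kept cells Tff3 (-0.343) and Agr2 (-0.058) were reversed there. The cause of these losses was not tested. The number of genes without overlap in detection lay between 2 and 3 in the alternatives. So did the number with a positive rho with Muc2 in all 4 libraries. Single signs did change. With all kept cells, rho of Agr2 with Muc2 was -0.22 in Si8 1 but 0.51 in Si8 2. That of Spink4 turned positive in DC (0.12 and 0.48). Detection of Retnlb ceased to overlap with doublets kept and in cells thinned to 1000 UMIs.

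Counts of called genes moved more. In goblet-like cells they fell from 5456 to 2436 in thinned cells and to 2764 in cluster 6 and 986 in cluster 8 alone. Over all cells they went from 3253 to 5171 with library totals, 1742 in thinned cells, 1549 without DC replicate 1 and 1411 without DC replicate 2. For the Muc2 contrast they went from 3321 to 945 with DESeq2, 566 in thinned cells, 699 with no library block and 5509 with all kept cells. For its tissue difference they went from 532 to 1166 with library totals (1107 higher, 59 lower, beside 312 and 220), 75 with DESeq2, 48 in thinned cells, 123 with all kept cells, 3 with no library block and between 274 and 442 with a library left out. With library totals, the Muc2 contrast had 724 genes higher and 3113 lower, beside 1691 and 1630, and all cells had 4167 higher and 1004 lower, beside 1687 and 1566.

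Replicate numbers are shared between the tissues, but no label says that they pair the libraries. With the replicate number as a block, 4 members were called in goblet-like cells and 5 over all cells, where Klk1 now passed (0.881), and 6538 and 3923 genes. Deviations of same-numbered libraries correlated at r = 0.173 across 11504 genes. Where a left-out library leaves a tissue with 1, that library is assumed to vary like those of the other tissue. Goblet-like cells of a library held 110 to 191 Retnlb UMIs, which limits the precision of its values.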
